A study of Homo sapiens with 6 samples.

Results

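Aminoacyl-tRNA synthetases attach each amino acid to its transfer RNA, the step that fixes the genetic code before an amino acid reaches the ribosome. Human cells keep one set of these enzymes for the cytosol and another for mitochondria, where a separate ribosome translates the proteins of the mitochondrial genome. Both sets are encoded in the nucleus, and the names of genes for the mitochondrial enzymes end in 2. Several cytosolic synthetases sit together in a multisynthetase complex held by the scaffold proteins *AIMP1*, *AIMP2* and *EEF1E1*, whereas the others work outside it. Transcripts of 36 synthetase genes, 20 cytosolic and 16 mitochondrial, were followed among the 60651 genes of the deposited tables. Members were found by gene symbol from a list of names, with no filter on measured values. The list was drawn up with earlier results of these data known. The enzymes for aspartate were not analysed here.

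Sequencing of total RNA covered 6 libraries from human neuroblastoma cells in culture, 3 with EtOH (the ethanol vehicle) and 3 with Tet (tetracycline) in their titles. Neuroblastoma is a childhood tumour of the sympathetic nervous system, and *MYCN* is the oncogene whose amplification marks many high-risk cases. The labels did not agree on the model. Titles gave IMR575, the *MYCN*-amplified line IMR-5/75, a tag was named knockdown, and in the study IMR-5/75 cells carry an shRNA against *MYCN* that can be switched on. The protocol text instead gave single clones of SK-N-SH cells that carry a tetracycline repressor and a tetracycline-inducible *MYCN* construct, and the design text gave 5 days of induction. Groups were taken from the titles, and no treatment other than EtOH or Tet separated them per the labels. The labels did not say whether libraries of 1 label came from separate cultures, so p-values measure the spread between these libraries, which may be technical.

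*MYCN*, the gene that the system regulates, did not separate the labels. The *MYCN* transcript was at 158, 256 and 156 CPM (counts scaled to the library total, with TMM factors) in the EtOH libraries and 197, 200.1 and 145 in the Tet libraries. The groups overlapped, and the log2 fold change, Tet minus EtOH, was -0.07 ± 0.23 (SE, n = 3 libraries per label, adjusted p = 0.956, edgeR quasi-likelihood test). Its sign was positive without EtOH replicate 2 (0.21), without Tet replicate 3 (0.07) and without replicate 2 of both labels (0.13). Libraries are therefore called by their label, and no direction below is read as a response to more or less *MYCN*.

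Library totals ranged from 27933378 to 40498065 counts, and 3 counts amounted to 0.0741 to 0.107 CPM. The share of counts from the mitochondrial genome ranged from 4.12% in EtOH replicate 2 to 10.01% in EtOH replicate 1. By chi-square per degree of freedom over genes, EtOH replicate 2 stood apart from EtOH replicates 1 and 3 (147 and 107, against 11.6 between those), whereas Tet replicates 2 and 3 were the farthest apart (79.99), with 30.8 and 32.3 to Tet replicate 1. Main results are also given with libraries left out. Of 7 noradrenergic neuroblastoma markers 5 could be tested, and the 7 summed to between 359 and 445 CPM with EtOH and between 505 and 574 CPM with Tet. *HAND2* and *GATA3* were abundant, while *TH*, the first enzyme of catecholamine synthesis, was at 0 in 5 of 6 libraries and *DBH* reached at most 0.453 CPM. Of these markers *PHOX2A*, *GATA3*, *ISL1* and *CHGA* had an unadjusted p under 0.05 in edgeR, all higher with Tet, against 5.83% of all genes tested. *HAND2*, the other one tested, had a log2 fold change of -0.14 ± 0.32 (SE). Among the mesenchymal-type, epithelial and fibroblast markers below, *PRRX1* was lower and *SNAI2*, *EPCAM* and *COL3A1* were higher at that level. None of these markers passed the adjusted test. The 7 mesenchymal-type markers summed to between 296 and 523 CPM with EtOH and between 267 and 386 CPM with Tet. Leukocyte, endothelial and epithelial markers summed to at most 1.77 CPM in any library, and *CD3E* and *KRT19* were at 0 in all of them. Fibroblast markers summed to between 10.9 and 16.1 CPM with EtOH and between 19.9 and 22.8 CPM with Tet, of which *COL3A1* had means of 8.82 and 18.04 CPM, *COL1A1* 4.02 and 2.75 CPM and *DCN* 0.0916 and 0.121 CPM. Whether these marker differences had a part in the values of the synthetases was not tested.

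None of the synthetase genes passed the test. Of the 36 genes 34 had enough counts to be tested, all 20 cytosolic and 14 of 16 mitochondrial ones, and 0 had an adjusted p under 0.05 in edgeR. Over all 22443 genes tested, 0.147% were called higher with Tet and 0.0891% lower. At an unadjusted p under 0.05 there were 2 cytosolic genes, *WARS1* and *HARS1*, both higher with Tet, against 5.83% of all genes in that direction. The 2 mitochondrial genes at that level, *EARS2* and *MARS2*, were both lower with Tet, against 4.94% of all genes. Groups of 3 libraries did not overlap for 3 synthetase genes that were higher with Tet (*WARS1*, *HARS1* and *FARS2*) and 4 that were lower (*EARS2*, *MARS2*, *LARS2* and *IARS2*). The same held for 9.21% of all genes in the higher direction and 8.29% in the lower. DESeq2 fitted to the genes that edgeR tested called 1 synthetase, *EARS2*, and limma-voom called 0. Without replicate 2 of both labels edgeR called 4 synthetases (*WARS1*, *HARS1*, *GARS1* and *EARS2*). Without replicate 1 or replicate 3 of both labels, tried after seeing the data, it called 0 of all genes, and the adjusted p of each of these 4 genes was 0.999 and 0.9998. SE of the log2 fold change ran from 0.15 to 0.54 among the 34 genes.

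**Figure D1:**
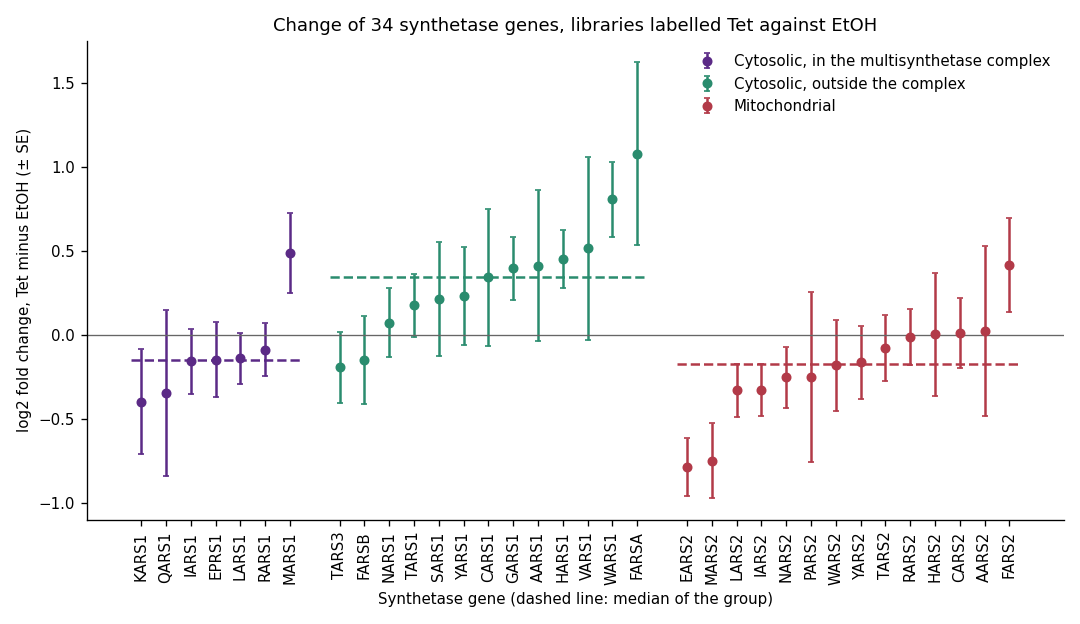
Log2 fold change (Tet minus EtOH, y axis) of the 34 synthetase genes tested, ordered within 3 groups on the x axis. Points are edgeR estimates, bars are SE (n = 3 libraries per label), and dashed lines are group medians of -0.15 for the multisynthetase complex, 0.34 for the other cytosolic genes and -0.17 for the mitochondrial genes.

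*EARS2*, the mitochondrial glutamyl-tRNA synthetase, had the smallest p of all 34 genes. This enzyme charges both the glutamate and the glutamine tRNA of mitochondria with glutamate, and an amidotransferase then converts the second product. Its level was 26.1, 22 and 24.7 CPM in the EtOH libraries and 12.4, 14.8 and 14.9 CPM in the Tet libraries. Every Tet library lay below every EtOH library. The Tet level was 0.579 times the EtOH level, a log2 fold change of -0.79 ± 0.17 (SE, n = 3 per label) with an adjusted p of 0.132 in edgeR. In DESeq2 on the same genes the adjusted p was 0.00275, and without replicate 2 of both labels edgeR gave -0.89 with an adjusted p of 0.0264. Without Tet replicate 1 the adjusted p in edgeR was 0.507, while the sign was the same in all 16 alternatives.

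*MARS2*, the mitochondrial methionyl-tRNA synthetase, which also supplies the initiator tRNA before formylation, was measured at 15.5, 19.3 and 12.5 CPM with EtOH and 9.46, 10.5 and 8.104 CPM with Tet. The groups did not overlap. Its log2 fold change was -0.75 ± 0.22 (SE, n = 3), which is 0.595 times the EtOH level, and the adjusted p was 0.255 in edgeR. Over 16 alternatives, which leave aside those without replicate 1 or 3 of both labels, the log2 fold change ran from -0.91 to -0.57 and the adjusted p from 0.0533 to 0.602.

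*WARS1*, the cytosolic tryptophanyl-tRNA synthetase, which is also known as an interferon-induced gene, was even among the EtOH libraries at 17.3, 16.8 and 17.4 CPM. The Tet libraries held 32.9, 20.8 and 36.8 CPM. All 3 were higher than every EtOH library, but Tet replicate 2 stood closest to them. The level with Tet was 1.75 times that with EtOH (log2 fold change 0.81 ± 0.23, SE, n = 3, adjusted p = 0.225 in edgeR). Without replicate 2 of both labels the log2 fold change was 1.01 and the adjusted p 0.0106. Of its exon bases 10.6% lie inside another annotated gene, *WDR25* among them, so some of its reads were divided.

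*HARS1*, the cytosolic histidyl-tRNA synthetase, was at 39.5, 55.4 and 43.5 CPM with EtOH and 62.9, 68.4 and 58.3 CPM with Tet, with no overlap between the labels. Its log2 fold change was 0.45 ± 0.17 (SE, n = 3, adjusted p = 0.389 in edgeR), and without replicate 2 of both labels it was 0.55 with an adjusted p of 0.0495. The mitochondrial histidyl-tRNA synthetase gene *HARS2* lies beside it on chromosome 5 and is read in the opposite direction. *HARS2* was measured at 22.5, 7.36 and 20.7 CPM with EtOH and 17.4, 15.3 and 18.1 CPM with Tet, a log2 fold change of 0.0044 ± 0.37 (SE, n = 3, adjusted p = 0.998 in edgeR). Its EtOH replicate 2 library was far below the other 5. In the files *HARS1* spans chr5:140673035-140691537 on the minus strand and *HARS2* chr5:140691430-140699305 on the plus strand (GRCh38), and 8.46% and 6.99% of their exon sequence falls within other genes.

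The promoters of these 4 genes with an unadjusted p under 0.05 are shown because they let the start sites be compared directly. RefSeq promoter windows, from 250 bases before to 50 bases after the gene start (GRCh38.p14), were matched by symbol for 30 of the 36 genes and not for *LARS1*, *TARS3*, *VARS1*, *YARS1*, *AARS2* and *VARS2*. Windows were searched on both strands for the E-box CACGTG, which MYC-family proteins bind, and for TGATGNAAT, a form of the ATF4 element. Forms of that element with another last base were not searched, so a window without a match may still hold one. The searched motifs share no overlapping match in these windows. Capitals mark an E-box, and sequences run 5′ to 3′ on the strand of the gene.
*EARS2*, chr16:23557301-23557600, minus strand: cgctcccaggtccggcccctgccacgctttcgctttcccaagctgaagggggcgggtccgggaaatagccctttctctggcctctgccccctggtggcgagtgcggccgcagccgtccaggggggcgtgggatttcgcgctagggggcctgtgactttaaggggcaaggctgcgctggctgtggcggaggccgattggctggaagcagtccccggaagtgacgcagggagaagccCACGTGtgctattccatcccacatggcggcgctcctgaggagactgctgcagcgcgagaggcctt
*MARS2*, chr2:197705119-197705418, plus strand: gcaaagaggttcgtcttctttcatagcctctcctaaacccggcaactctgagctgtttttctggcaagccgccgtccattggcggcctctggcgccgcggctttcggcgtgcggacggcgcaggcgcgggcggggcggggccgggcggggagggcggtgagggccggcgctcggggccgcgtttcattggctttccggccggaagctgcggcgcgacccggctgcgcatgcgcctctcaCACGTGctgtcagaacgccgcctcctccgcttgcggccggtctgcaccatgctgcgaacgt
*WARS1*, chr14:100376278-100376577, minus strand: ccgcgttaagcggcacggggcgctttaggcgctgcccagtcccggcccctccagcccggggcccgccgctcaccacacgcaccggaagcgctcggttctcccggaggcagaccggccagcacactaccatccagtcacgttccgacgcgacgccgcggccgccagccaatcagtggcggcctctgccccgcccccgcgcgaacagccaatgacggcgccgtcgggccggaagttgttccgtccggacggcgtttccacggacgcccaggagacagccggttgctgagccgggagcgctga
*HARS1*, chr5:140691321-140691620, minus strand: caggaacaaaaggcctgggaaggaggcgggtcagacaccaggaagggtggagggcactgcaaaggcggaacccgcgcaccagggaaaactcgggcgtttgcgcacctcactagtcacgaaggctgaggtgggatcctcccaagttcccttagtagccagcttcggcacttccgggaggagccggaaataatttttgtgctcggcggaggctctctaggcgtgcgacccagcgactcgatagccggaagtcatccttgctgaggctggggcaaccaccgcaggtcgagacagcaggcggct

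The E-box began 15 bases before the gene start in *EARS2* and 11 bases before it in *MARS2*. All starts here are those of RefSeq, and some differ from the annotation used for counting. These letters were not in the windows of *WARS1* and *HARS1*. The *HARS1* window shares 184 bases with that of *HARS2*, whose start lies 85 bases from the *HARS1* start on the other strand. An E-box was held by 3 of 14 mitochondrial windows (*EARS2*, *MARS2* and *CARS2*), by 1 of 16 cytosolic windows (*IARS1*) and by 7.26% of all 35116 windows of the same length. *CARS2*, with its E-box 3 bases before the RefSeq start, was at 5.75, 5.74 and 5.29 CPM with EtOH and 5.53, 5.599 and 5.801 CPM with Tet, a log2 fold change of 0.01 ± 0.21 (SE, n = 3). That start is at position 110706515 of chromosome 13, whereas the gene as counted begins at 110713603 on the minus strand. TGATGNAAT was found in the window of *TARS1* alone among the 30 synthetase genes and in 0.991% of all windows. A match describes letters in a window and is no evidence of binding. Whether matches go with the changes was not tested.

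**Figure D2:**
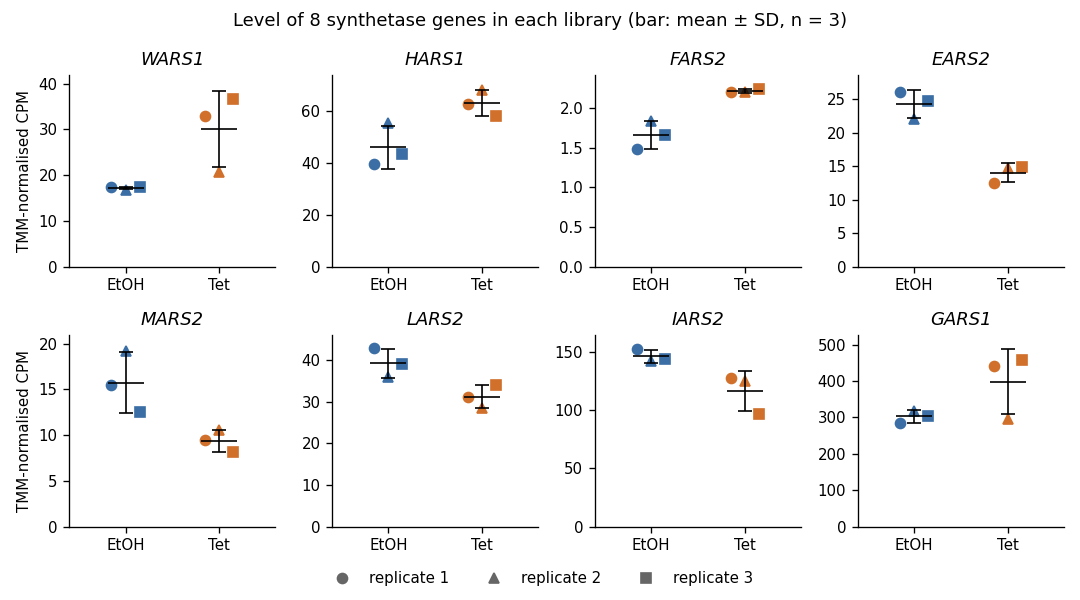
Level (TMM-normalised CPM, y axis from 0) of 8 synthetase genes in each of the 6 libraries, with marker shape giving the replicate number and black bars the mean ± SD (n = 3). Labels do not overlap in the first 7 panels, while *GARS1* has 1 Tet library, replicate 2, within the EtOH range.

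Among the cytosolic synthetases outside the multisynthetase complex, 11 of 13 had a log2 fold change above 0, with a median of 0.34. The division into complex and other genes follows known membership but was made after the values were seen, so the counts are a description. Without Tet replicate 3 the median was 0.07, with 9 of 13 above 0. Beside *WARS1* and *HARS1*, the glycyl-tRNA synthetase gene *GARS1*, whose product serves both compartments, was at 285, 318 and 305 CPM with EtOH and 442, 296 and 458 CPM with Tet. Tet replicate 2 lay among the EtOH libraries, and the other 2 Tet libraries were higher than all of them. The log2 fold change was 0.40 ± 0.19 (SE, n = 3, adjusted p = 0.513 in edgeR). Without replicate 2 of both labels it was 0.61, with an adjusted p of 0.0253.

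Phenylalanyl-tRNA synthetase of the cytosol is built from an alpha subunit, encoded by *FARSA*, and a beta subunit, encoded by *FARSB*. *FARSA* had the largest log2 fold change of all members, 1.08 ± 0.54 (SE, n = 3, adjusted p = 0.537 in edgeR), but rested on few reads. Its level was 0.6696, 0.739 and 0.463 CPM with EtOH and 0.532, 1.11 and 2.24 CPM with Tet, which came from 14 to 89 counts per library. Most of the difference lay in Tet replicate 3, and the labels overlapped. *FARSB* was measured at 166, 289 and 159.5 CPM with EtOH and 182, 224 and 147 CPM with Tet, or 4826 to 8003 counts, with a log2 fold change of -0.15 ± 0.26. The measured levels of these partner transcripts differed widely, with a mean of 1.04 TPM (counts scaled for exon length and library) for *FARSA* and 79.2 TPM for *FARSB*. Exon GC content was 61.05% in *FARSA* and 39.99% in *FARSB*, and whether it had a part in this gap was not tested.

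*VARS1*, the valyl-tRNA synthetase gene, was also sparse, at 2.09, 1.15 and 2.15 CPM with EtOH and 1.38, 1.38 and 4.93 CPM with Tet. Tet replicate 3 was the highest, and the other Tet libraries lay within the EtOH range. Its log2 fold change of 0.52 ± 0.54 (SE, n = 3, adjusted p = 0.819 in edgeR) was -0.38 without Tet replicate 3. The mitochondrial *VARS2* could not be tested, with 0.209, 0.162 and 0.116 CPM with EtOH and 0.195, 0.141 and 0.591 CPM with Tet, and 63.0% of its exon bases lie inside another annotated gene.

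*NARS1*, the asparaginyl-tRNA synthetase gene, was the most abundant member per length at a mean of 315 TPM. It was measured at 378, 612 and 388 CPM with EtOH and 490.4, 461 and 497 CPM with Tet, with a log2 fold change of 0.07 ± 0.20 (SE, n = 3, adjusted p = 0.951 in edgeR). The Tet libraries were close to each other and lay inside the EtOH range. The threonyl-tRNA synthetase gene *TARS1* was at 239, 253 and 238 CPM with EtOH and 305, 204 and 315 CPM with Tet (log2 fold change 0.18 ± 0.19). Its paralog *TARS3* was at 57.6, 36.7 and 57.5 CPM with EtOH and 42.6, 38.7 and 51.3 CPM with Tet (log2 fold change -0.19 ± 0.21), and the labels overlapped for both. Log2 fold changes of the remaining genes outside the complex were 0.41 ± 0.45 for the alanine gene *AARS1*, 0.34 ± 0.41 for the cysteine gene *CARS1*, 0.21 ± 0.34 for the serine gene *SARS1* and 0.23 ± 0.29 for the tyrosine gene *YARS1*. In *AARS1*, *CARS1*, *SARS1* and *YARS1* the replicate 2 library was the lowest of its label in both labels, and adjusted p-values of these 4 genes in edgeR ran from 0.826 to 0.891.

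Of the 7 synthetases of the multisynthetase complex, 6 had a log2 fold change below 0, with a median of -0.15. The exception was *MARS1*, the cytosolic methionyl-tRNA synthetase gene, at 34.9, 22.5 and 25.97 CPM with EtOH and 40.4, 28.99 and 47.7 CPM with Tet. Its log2 fold change was 0.49 ± 0.24 (SE, n = 3, adjusted p = 0.52 in edgeR), the labels overlapped, and 13.3% of its exon sequence falls within other genes, of which *DDIT3* is one. *EPRS1*, which encodes the fused glutamyl- and prolyl-tRNA synthetase, was at 615, 440.3 and 591 CPM with EtOH and 547, 352 and 588 CPM with Tet (log2 fold change -0.15 ± 0.23). *IARS1*, the isoleucine gene, was at 499.8, 479 and 489 CPM with EtOH and 528, 320.1 and 468 CPM with Tet (log2 fold change -0.16 ± 0.19). In *EPRS1* and *IARS1* Tet replicate 2 was the lowest of all 6 libraries, and without it their log2 fold changes were 0.05 and 0.03. The leucine gene *LARS1* (-0.14 ± 0.15), the arginine gene *RARS1* (-0.09 ± 0.16), the glutamine gene *QARS1* (-0.35 ± 0.50) and the lysine gene *KARS1* (-0.40 ± 0.31), whose product serves both compartments, completed the set. Adjusted p-values of the 7 genes ran from 0.52 to 0.907 in edgeR. Without replicate 2 of both labels the median was -0.08, with 3 of 7 above 0.

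Of the 14 mitochondrial synthetases tested, 10 had a log2 fold change below 0 and 4 above, with a median of -0.17. After *EARS2* and *MARS2*, the labels did not overlap for *LARS2* and *IARS2*, which load leucine and isoleucine. *LARS2* was at 42.9, 35.96 and 39.04 CPM with EtOH and 31.2, 28.5 and 34.04 CPM with Tet (log2 fold change -0.33 ± 0.16, SE, n = 3, adjusted p = 0.507 in edgeR). *IARS2* was at 153, 142 and 145 CPM with EtOH and 128, 126 and 97.3 CPM with Tet (log2 fold change -0.33 ± 0.16, adjusted p = 0.513 in edgeR). In both genes the sign was the same in all 16 alternatives. In the other direction *FARS2*, the mitochondrial phenylalanyl-tRNA synthetase gene, was at 1.48, 1.84 and 1.65 CPM with EtOH and 2.198, 2.2 and 2.24 CPM with Tet. Its Tet libraries were nearly equal and above all EtOH libraries, with a log2 fold change of 0.42 ± 0.28 (SE, n = 3, adjusted p = 0.671 in edgeR).

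*RARS2*, the arginine gene, was one of the 2 most abundant mitochondrial members, at 83.2, 109 and 90.7 CPM with EtOH and 96.1, 103 and 81.8 CPM with Tet, and its log2 fold change was -0.01 ± 0.17. *NARS2*, the asparagine gene, was at 36.3, 42.4 and 36.96 CPM with EtOH and 38.02, 32.9 and 26.1 CPM with Tet (log2 fold change -0.25 ± 0.18), and *TARS2*, the threonine gene, at 17.5, 12.6 and 15.01 CPM with EtOH and 14.1, 12.9 and 15.8 CPM with Tet (log2 fold change -0.08 ± 0.20). The labels overlapped in all 3. Log2 fold changes were -0.25 ± 0.51 for the proline gene *PARS2*, -0.18 ± 0.27 for the tryptophan gene *WARS2*, -0.16 ± 0.22 for the tyrosine gene *YARS2* and 0.02 ± 0.50 for the alanine gene *AARS2* (SE, n = 3). Of the *YARS2* exon bases 18.1% lie inside another annotated gene. *SARS2*, the serine gene, held at most 4.5 counts in a library and was at 0 in 3 of 6, so it was not tested. Of its exon bases 48.2% lie inside another annotated gene.

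Levels of the members spread over several orders of magnitude and followed the GC content of their exons. The 3 most abundant cytosolic genes per length were *NARS1* (315 TPM, mean of 6 libraries), *EPRS1* (266 TPM) and *IARS1* (171 TPM), which together held 53.4% of the summed cytosolic TPM. *TARS1* (165 TPM), *RARS1* (134 TPM), *LARS1* (90.1 TPM), *FARSB* (79.2 TPM) and *GARS1* (54.8 TPM) followed, and these 8 genes held 90.6%. *TARS3* (28.8), *SARS1* (28.2), *YARS1* (23.2), *MARS1* (12.8), *KARS1* (11.1), *HARS1* (10.5) and *WARS1* (10.04) lay between 10.04 and 28.8 TPM, and *AARS1* was at 3.98 TPM. *CARS1* (1.23), *QARS1* (1.16), *FARSA* (1.04) and *VARS1* (0.9803) were the lowest. Among the mitochondrial genes *IARS2* (87.3 TPM), *RARS2* (86.7 TPM) and *NARS2* (30.9 TPM) held 69.4% of the sum. *YARS2* (29.7), *HARS2* (12.3), *MARS2* (11.4), *TARS2* (9.76), *LARS2* (7.75), *EARS2* (7.49) and *WARS2* (5.99) came next, in TPM. *PARS2* (2.07), *CARS2* (1.47), *AARS2* (1.38), *FARS2* (1.09), *VARS2* (0.0962) and *SARS2* (0.0345) closed the order. These ranks and shares depend on the summed length of all annotated exons of a gene. By CPM *LARS1*, with 20639 exon bases, had means of 716 with EtOH and 650 with Tet. For *NARS1*, with 4089 bases, the means were lower, 459 and 483.

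The 22 members with an exon GC content under 50% had a median of 30.3 TPM (5.99 to 315), and the 14 at or above 50% had a median of 1.302 TPM (0.0345 to 12.8). Across the 34 genes tested, Spearman's rho between exon GC content and mean log2 TPM was -0.87 (Pearson's r -0.89), and across all 22443 genes it was -0.48. Genes are not independent replicates and these share libraries, so the correlation is a description. These are enzymes that every cell needs, and whether GC content had a part in the level near 1 TPM of *QARS1*, *VARS1* and *FARSA* was not tested. Libraries also differed from the others of their label along GC content. Over the 34 genes, the rho of this deviation with GC content was 0.57, -0.45 and 0.10 for EtOH replicates 1, 2 and 3 and -0.30, -0.33 and 0.59 for Tet replicates 1, 2 and 3. Over all genes it was 0.43, -0.37 and 0.15 with EtOH and -0.20, -0.35 and 0.47 with Tet, with the largest value in Tet replicate 3. With the log2 fold change the rho was 0.28 over the synthetases and 0.06 over all genes.

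**Figure D3:**
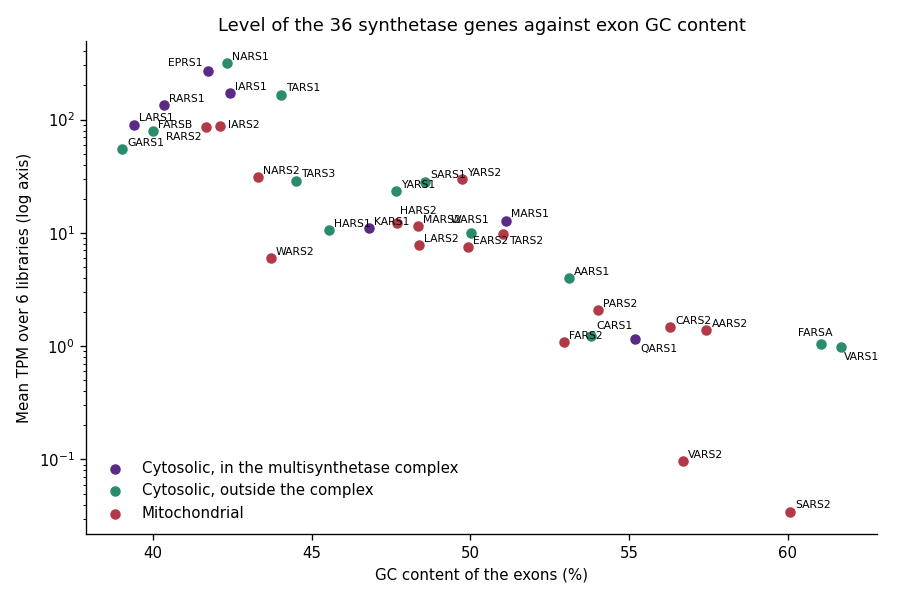
Mean TPM over the 6 libraries (y axis, log scale) against the GC content of the exons in percent (x axis) for the 36 synthetase genes, coloured by group. Genes under 50% GC lie between 5.99 and 315 TPM and genes at or above 50% between 0.0345 and 12.8 TPM.

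The compartments were compared by their median log2 fold change. It was 0.19 for the 20 cytosolic genes, of which 12 were above 0, and -0.17 for the 14 mitochondrial genes, against -0.0061 for all genes tested, of which 49.3% were above 0. The difference between the compartment medians was 0.37. It was 0.30 with a correction for GC content and 0.17 among members under 50% GC. Without Tet replicate 3 the difference was 0.16, without Tet replicate 1 0.24, and without replicate 2 of both labels 0.52. No test was made over the members, which share libraries and are not replicates.

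The summed level gave a ratio within each library that does not depend on the scaling between libraries. Cytosolic synthetases summed to 1380, 1602 and 1358 TPM in the EtOH libraries and 1567, 1187 and 1360 TPM in the Tet libraries, with means of 1447 ± 135 and 1371 ± 190.3 (SD, n = 3). Mitochondrial synthetases summed to 306, 360.1 and 303 TPM with EtOH and 299, 286 and 218 TPM with Tet, with means of 323 ± 32.2 and 268 ± 43.4. Every Tet library lay below every EtOH library in the mitochondrial sum, the nearest being 299 against 303 TPM, whereas the cytosolic sums overlapped. *IARS2* and *RARS2* together held 58.9% of the mitochondrial sum by mean TPM. The ratio was 4.51, 4.45 and 4.49 with EtOH and 5.24, 4.15 and 6.23 with Tet. The EtOH libraries were thus close to each other, and the Tet libraries lay on both sides of them, with replicate 2 the lowest. The log2 ratio differed by 0.20 between the labels, by 0.35 without Tet replicate 2 and by 0.06 without Tet replicate 3.

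**Figure D4:**
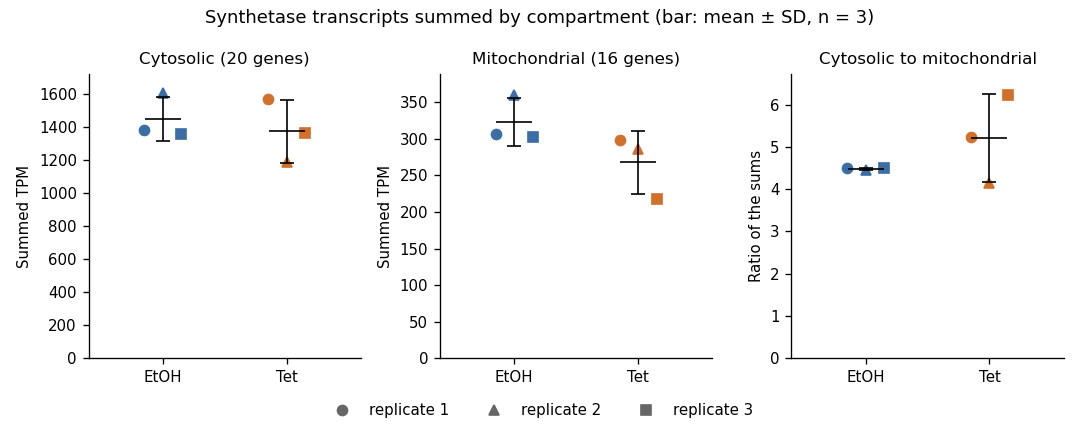
Summed TPM of the 20 cytosolic and the 16 mitochondrial synthetase genes and their ratio (y axes from 0) in each library, with marker shape giving the replicate number and black bars the mean ± SD (n = 3). The ratio is 4.45 to 4.51 with EtOH and 4.15 to 6.23 with Tet.

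Cytosolic and mitochondrial genes for the same amino acid were also set against each other within each library. *EPRS1*, which serves both glutamate and proline, was not paired with *EARS2* or *PARS2*, and the counts of pairs leave these out. Of the 16 other pairs 15 had at least 3 counts for both genes in every library, and the serine pair did not. In TPM *EPRS1* was at 312, 244 and 302 with EtOH and 290, 180 and 269 with Tet. *EARS2* was at 10.05, 9.3 and 9.6 TPM with EtOH and 5.02, 5.75 and 5.2 TPM with Tet. *PARS2* was at 2.94, 0.859 and 3.015 TPM with EtOH and 2.42, 1.27 and 1.9 TPM with Tet. Ratios are of TPM and so depend on the summed exon length of both genes. By TPM the cytosolic gene was the higher in every library in 9 of the 15 pairs and the mitochondrial gene in 0. Over the 15 pairs the mean ratio ran from 0.776 for *YARS1* to *YARS2* to 70.8 for *FARSB* to *FARS2*. In 11 of 15 pairs the mean log2 ratio was higher with Tet, with a median difference of 0.22, but the labels overlapped in 13. Among the 15 pairs the methionine pair showed the largest difference. Its log2 ratio, *MARS1* to *MARS2*, was -0.04, -0.99 and -0.16 with EtOH and 0.88, 0.25 and 1.34 with Tet. The sign of this ratio depends on the exon lengths, 7028 bases for *MARS1* and 3027 for *MARS2*. By CPM *MARS1* was the higher in all EtOH libraries, at 34.9, 22.5 and 25.97 against 15.5, 19.3 and 12.5. For the tryptophan pair, *WARS1* to *WARS2*, the log2 ratio was 0.44, -0.21 and 0.56 with EtOH and 1.499, 0.36 and 1.72 with Tet, and Tet replicate 2 lay within the EtOH range. The leucine pair was separated by less than rounding, at 3.39, 3.42 and 3.55 with EtOH and 3.75, 3.63 and 3.55 with Tet. The histidine pair, *HARS1* to *HARS2*, was at -1.12, 0.98 and -0.86 with EtOH and -0.07, 0.23 and -0.25 with Tet, with EtOH replicate 2 above all others. The valine pair rested on 3.5 to 23.5 counts of *VARS2*.

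**Figure D5:**
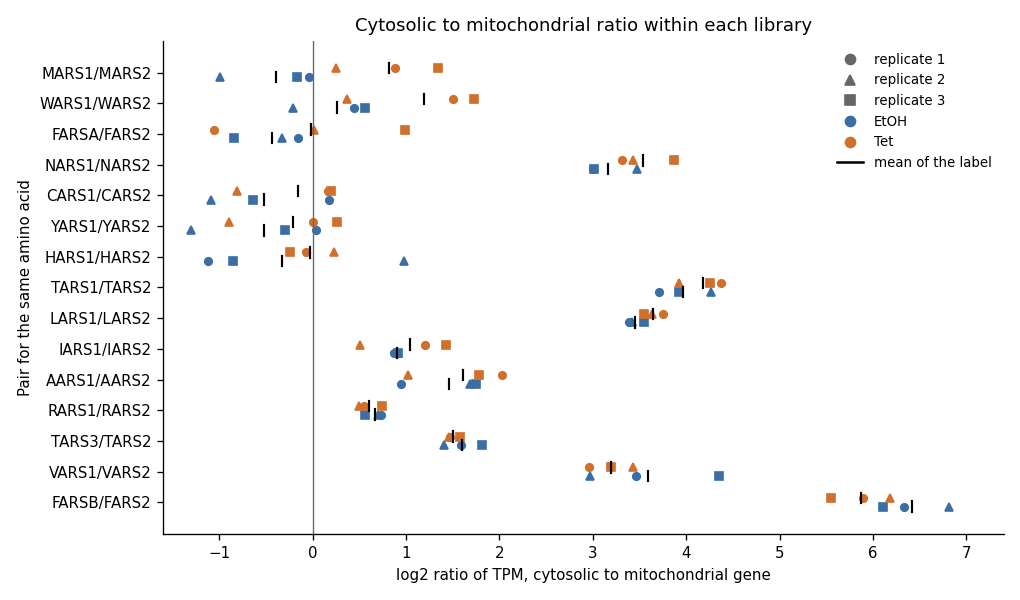
Log2 ratio of TPM, cytosolic to mitochondrial gene (x axis), for 15 pairs that load the same amino acid (y axis, ordered by the difference between labels), with 1 point per library and a black line at the mean of each label. In the methionine pair the EtOH libraries lie between -0.99 and -0.04 and the Tet libraries between 0.25 and 1.34. The side of 0 on which a pair lies depends on the summed exon lengths. Pairs of *EPRS1* with *EARS2* and *PARS2* are not included.

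Genes that act with the synthetases were taken from 6 lists, and 0 of their 61 genes tested passed the adjusted test in edgeR or in DESeq2. For single genes of all 6 lists the shares over all genes tested apply. These were 5.83% higher and 4.94% lower at an unadjusted p under 0.05 in edgeR. Labels did not overlap for 9.21% in the higher and 8.29% in the lower direction. The 3 scaffold genes of the multisynthetase complex had log2 fold changes of -0.22 ± 0.14 (*AIMP1*), -0.05 ± 0.32 (*AIMP2*) and -0.04 ± 0.36 (*EEF1E1*), all below 0. The mitochondrial amidotransferase, which acts on the product of *EARS2*, and the methionyl-tRNA formyltransferase, which acts on that of *MARS2*, were below 0 in 4 of 4 genes with a median of -0.15. Their values were -0.11 ± 0.15 for *QRSL1*, -0.09 ± 0.21 for *GATB*, -0.27 ± 0.14 for *GATC* and -0.19 ± 0.22 for *MTFMT*, and the labels did not overlap for *GATC*. Of the *GATC* exon bases 47.6% lie inside other annotated genes, *SRSF9* among them, so its counts may hold reads of these. Of 9 mitochondrial translation factors 7 were below 0, with a median of -0.06. *MRRF*, the mitochondrial ribosome recycling factor, was at 67.5, 54.1 and 64.96 CPM with EtOH and 48.5, 44.5 and 46 CPM with Tet (log2 fold change -0.42 ± 0.15, unadjusted p = 0.0211, adjusted p = 0.354 in edgeR). *TUFM*, the mitochondrial elongation factor Tu, was at 2.11, 0.974 and 1.74 CPM with EtOH and 1.83, 2.14 and 7.02 CPM with Tet, so that its log2 fold change of 1.19 ± 0.56 came mainly from Tet replicate 3. *MTRF1*, a release factor homolog, had -0.32 ± 0.16.

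Of the 6 cytosolic elongation factors 3 were above and 3 below 0, with a median of -0.16. The median was 0.14 without EtOH replicate 1, 0.08 without Tet replicate 2, -0.51 without EtOH replicate 2 and -0.70 without Tet replicate 3. *EEF1A1*, the general elongation factor that brings charged tRNA to the ribosome, was at 1213, 321 and 865 CPM with EtOH and 495, 334 and 478 CPM with Tet, a log2 fold change of -0.88 ± 0.41 (SE, n = 3, adjusted p = 0.505 in edgeR). EtOH replicate 2 was the lowest of all libraries, and without it *EEF1A1* and its partner *EEF1B2* (-0.70 ± 0.37 with all libraries) passed the test, both lower with Tet. *EEF1A2*, the form found in neurons and muscle, was at 3.26, 2.45 and 3.31 CPM with EtOH and 4.18, 4.68 and 16.3 CPM with Tet (log2 fold change 1.48 ± 0.51, unadjusted p = 0.0193, adjusted p = 0.34 in edgeR). Among 18 genes of tRNA maturation, export and editing the median was -0.07, with 6 above 0. Unadjusted p-values in edgeR were under 0.05 for 2 of them, against 5.83% of all genes in that direction. They were *DTD1* (0.54 ± 0.19), an editing enzyme that removes D-amino acids from tRNA, and *ELAC1* (0.53 ± 0.22), a tRNA-processing nuclease.

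ATF4 is the transcription factor of the amino acid response and is known to induce many cytosolic synthetase genes. Its own transcript was at 41.6, 9.49 and 24.7 CPM with EtOH and 23.7, 11.2 and 27.2 CPM with Tet (log2 fold change -0.29 ± 0.50, SE, n = 3, adjusted p = 0.903 in edgeR), and the labels overlapped. Of 26 genes of this response that are not synthetases, *ATF4* included, 21 could be tested, 18 had a log2 fold change above 0 (against 49.3% of all genes tested), and the median was 0.39. Without Tet replicate 3 the median was 0.11, and without Tet replicate 2 it was 0.69. The only one with an unadjusted p under 0.05 was *SLC7A11*, the cystine transporter, at 40.9, 55.9 and 44.1 CPM with EtOH and 180.5, 22.8 and 166 CPM with Tet. Tet replicates 1 and 3 were far above the EtOH libraries and Tet replicate 2 was below them, and the log2 fold change was 1.39 ± 0.60 (SE, n = 3, adjusted p = 0.46 in edgeR). *ATF5* was at 8.86, 1.98 and 8.77 CPM with EtOH and 20.03, 2.19 and 38.1 CPM with Tet (log2 fold change 1.62 ± 0.87), with Tet replicates 1 and 3 again above all EtOH libraries. *SLC7A5*, the transporter of large neutral amino acids, was at 1.98, 1.24 and 1.01 CPM with EtOH and 2.46, 1.13 and 5.85 CPM with Tet. Its log2 fold change was 1.17 ± 0.58 (adjusted p = 0.528 in edgeR), the labels overlapped, and Tet replicate 3 was the highest. Of the 20 cytosolic synthetases 15 were lowest in replicate 2 among the Tet libraries, *AARS1*, *GARS1*, *TARS1*, *WARS1* and *YARS1* among them, and 13 were lowest in replicate 2 among the EtOH libraries. Of the 14 mitochondrial genes tested, replicate 2 was the lowest of its label for 5 with Tet and 7 with EtOH, and over all 22443 genes it was for 40.7% with Tet and 45.8% with EtOH. No relation between the ATF4 list and the synthetases was tested.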

How the data were processed

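Total RNA depleted of ribosomal RNA by enzymatic digestion was sequenced by the authors as stranded paired-end libraries, 6 in all. The authors deposited unscaled estimated counts for each gene in a table of its own for each library. The headers of these tables record trimming, STAR alignment and featureCounts 1.6.4 over exons for reads aligned to 1 place, with a read pair shared evenly among overlapping genes and strand ignored. The submitters' processing notes name STAR 2.7.1a, featureCounts 1.5.1 and GRCh38, and the study's methods give other options, and the headers were followed here. Between 12.3% and 14.7% of values in a library were not whole, and reads of overlapping or antisense genes cannot be told apart. All 92 spike-ins were at 0.

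Estimated counts were rounded, because the planned test had assumed counts. Genes were kept with filterByExpr, scaled by TMM and tested with the quasi-likelihood test of edgeR 4.0.16 (R 4.3.3), Tet against EtOH, with Benjamini-Hochberg adjustment over all 22443 genes and a threshold of 0.05. SE were derived from the F statistic. CPM compare libraries and TPM, by summed exon length, compare genes. Ranks, compartment sums and pair ratios in TPM depend on that length, which counts all annotated exons of a gene. The script was tested on simulated data. Alternatives were RLE and upper quartile scaling, no filter, DESeq2 1.42.0, limma-voom 3.58.1, no mitochondrial genome, a replicate block, and leaving out each library or replicate 2 of both labels. A correction for exon GC content (lowess, span 0.2) and the restriction to members under 50% GC, and leaving out replicate 1 or 3 of both labels, were chosen after seeing the data. Of the genes first listed, 3 are not reported here, and sums and counts leave them out. Members, gene lists and tests were chosen with earlier results of these data known. All members are named. Values in every library are given for members with an unadjusted p under 0.05 or with labels that do not overlap. The same holds for the 3 largest changes and 3 highest levels of a compartment, and for the histidine, valine and threonine genes. Of list genes with such a p or a large change, only some have values in every library. Others, *DTD1* and *ELAC1* among them, have a log2 fold change alone. *GARS1*, *MARS1*, *FARSB* and *CARS2* were added after their values were seen.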

Additional observations from a re-analysis of the deposited data

How the results depend on the processing

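None of the scaling, filter or library choices below gave more than 3 cytosolic or 1 mitochondrial synthetase past the threshold. Over 544 comparisons of a single synthetase with an alternative, 498 had the same sign and the same side of the threshold, 8 passed it, and 38 changed sign, 30 of these in fits with libraries left out. All genes called, 53 in edgeR, were 302 without a filter on low counts, 606 and 499 in DESeq2 on the genes that edgeR tested and on all genes, and 120 with the correction for GC content. *EARS2* was the 1 mitochondrial gene called in each DESeq2 fit. With libraries left out singly, calls ran from 0 to 692 over all genes (692 without EtOH replicate 2, and 0 to 2 without any other library), from 0 to 1 over the mitochondrial genes (*EARS2*, without EtOH replicate 2) and from 0 to 2 over the pathway lists (*EEF1A1* and *EEF1B2*, also without EtOH replicate 2). Without replicate 2 of both labels 874 genes were called, among them 3 cytosolic synthetases (*GARS1*, *HARS1* and *WARS1*, all higher) and 1 mitochondrial (*EARS2*, lower). Without replicate 1 or 3 of both labels, chosen after seeing the data, edgeR called 0 genes, with 1095 and 1032 at an unadjusted p under 0.05. The cause of these shifts was not tested.

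Same-numbered libraries of the 2 labels deviated together with correlations of 0.06, 0.51 and 0.22, so replicate 1 gave no sign of pairing, and the labels give only a shared number. With the replicate number as a block, 675 genes were called, 421 higher and 254 lower, with 1 mitochondrial synthetase (*EARS2*, adjusted p = 0.035 in edgeR) and 0 cytosolic ones. EtOH replicate 1 correlated better with Tet replicate 3 (0.38) than with its own number.

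Changes of sign were seen in genes whose log2 fold change lay near 0 or whose spread was wide. It was -0.0041 for *CARS2* and -0.0034 for *HARS2* with RLE scaling, -0.0034 for *HARS2* without a filter, -0.0038 for *CARS2* and -0.0027 for *HARS2* in DESeq2 on the genes that edgeR tested, -0.0001 for *CARS2* in DESeq2 on all genes, and -0.058 for *AARS2* and -0.061 for *CARS2* with the correction for GC content. With 1 library left out the log2 fold change ran from -0.22 to 0.21 for *MYCN*, -0.076 to 0.34 for *NARS1*, -0.71 to 0.21 for *QARS1*, -0.19 to 0.023 for *TARS2*, -0.33 to 0.19 for *FARSB*, -0.19 to 0.055 for *RARS1*, -0.054 to 0.46 for *SARS1*, -0.36 to 0.67 for *AARS2*, -0.35 to 0.26 for *HARS2*, -0.12 to 0.11 for *RARS2*, -0.37 to 0.081 for *WARS2*, -0.31 to 0.097 for *YARS2*, -0.052 to 0.035 for *CARS2*, -0.28 to 0.05 for *EPRS1*, -0.32 to 0.027 for *IARS1*, -0.030 to 0.77 for *AARS1*, -0.38 to 0.82 for *VARS1*. Without replicate 2 of both labels it was 0.13 for *MYCN*, 0.020 for *FARSB*, 0.015 for *IARS1*, 0.034 for *RARS1*, -0.13 for *AARS2*, -0.28 for *HARS2*, 0.037 for *RARS2*, 0.099 for *YARS2*. The alternatives moved the compartment medians, the summed ratio and the pairs by less than the SD between libraries pooled over the labels (0.27 and 0.09 for the medians, 0.24 for their difference, 0.21 for the log2 ratio of sums, whose SD within EtOH alone was 0.0096, and 0.42 for the pairs), with ranges of 0.02 to 0.37 for the cytosolic median, -0.25 to -0.12 for the mitochondrial median, 0.16 to 0.52 for their difference, 0.06 to 0.35 for the log2 ratio of sums and 0.07 to 0.41 for the pairs. *SARS2* and *VARS2* had too few counts to be tested.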
